A study of Homo sapiens with 15 samples.

Results

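The change of polysome association with GEMIN5 was measured in HEK-293, a cell line established from human embryonic kidney. It was defined for each gene as the polysome-over-Input ratio in GEMIN5 cells against the same ratio in control cells, on the log2 scale, and is called the interaction below. A negative interaction means that a smaller share of a gene's Input RNA, relative to other genes, was found in the polysome libraries of GEMIN5 cells than in those of control cells. All 15 libraries of the series enter it. Of 21519 genes in the count table, 12197 had enough counts to be tested. For splicing events the same difference was taken of the percent spliced in (PSI), the share of transcripts that include an exon or keep an intron, and 10800 of 721551 listed events were tested.

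Control cells gave 4 Input and 4 Polysome libraries, and GEMIN5 cells gave 3 Input and 4 Polysome libraries; each of these is a group. Input was the cytoplasmic lysate, and polysomes were fractions 8 to 12 of a sucrose gradient, taken after cycloheximide. GEMIN5 cells carried the plasmid pcDNA3Xpress-Gemin5 for 24 h after delivery with Lipofectamine LTX, while control cells were untreated, so an effect of GEMIN5 and one of transfection cannot be told apart. The labels call the samples independent without saying how cultures were kept apart, and p-values therefore cover only the spread among these libraries, which may be technical. Poly(A)-selected, stranded libraries held 11191417 to 18407933 gene counts and 14031 to 14851 detected genes. Of 7 markers of the HEK-293 line (NEFL, NEFM, PAX2, LHX1, KRT8, KRT18 and VIM), 6 to 7 were detected in every library.

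An mRNA that is being translated carries several ribosomes and sediments with the polysomes, whereas an mRNA that is held back stays in lighter fractions. mRNAs of ribosomal proteins and elongation factors begin with a run of pyrimidines, the 5′ terminal oligopyrimidine (TOP) tract, through which their loading onto ribosomes is switched as a group. Replication-dependent histone mRNAs end in a stem-loop instead of a poly(A) tail. GEMIN5 belongs to the SMN (survival motor neuron) complex, in which it recognises small nuclear RNAs for assembly with Sm proteins, and it also binds ribosomes.

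The sequences that mark the TOP and histone groups are given here because the ribosomal protein and histone lists have the lowest medians, and other TOP mRNAs include some of the opposite sign. The first set spans 10 bases before to 20 bases from the RefSeq start of the gene (GRCh38.p14), 5′ to 3′, with the longest run of at least 8 pyrimidines in capitals (in TPT1 the first of a pair of equal length, the other ending the window).
RPS21, chr20:62387093-62387122, plus strand: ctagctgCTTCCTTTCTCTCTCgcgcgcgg
RPL39, chrX:119791611-119791640, minus strand: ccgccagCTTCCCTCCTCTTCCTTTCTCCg
TPT1, chr13:45341164-45341193, minus strand: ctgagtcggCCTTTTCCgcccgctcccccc
EEF2, chr19:3985444-3985473, minus strand: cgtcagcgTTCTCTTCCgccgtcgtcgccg
EIF2S3, chrX:24054946-24054975, plus strand: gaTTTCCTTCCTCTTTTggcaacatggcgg
RPS21, RPL39 and TPT1 had negative interactions, and EEF2 and EIF2S3 positive ones. Such a run was present at 49 of the 61 tested ribosomal protein genes that matched a RefSeq promoter (80.3%), at 9 of 11 other TOP genes (81.8%), at 1197 of 9787 other tested genes (12.2%) and in 3430 of all 27305 promoters (12.6%), read on the transcribed strand. It describes these letters at the annotated start and is no measurement of the start used in the cells.

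The second set is the histone stem-loop near the 3′ end of 3 histone transcripts (GENCODE, GRCh38), 5′ to 3′, with the 16 matching bases in capitals. The match asked for GGC, any base, CTTTT, any base, AG, any base and GCC in a row.
H2AC13, chr6:27808640-27808669, plus strand: aaccaaaGGCTCTTTTCAGAGCCacctaca
H4C11, chr6:27824452-27824480, plus strand: aataaaaGGCCCTTTTCAGGGCCacccta
H4C8, chr6:26285124-26285153, minus strand: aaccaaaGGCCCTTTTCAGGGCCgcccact
The annotated transcripts of 17 of 42 tested replication-dependent histone genes (40.5%) and of 6 of 12155 other tested genes (0.0494%) held this stem-loop on the sense strand. Of those 6, 4 are histone genes by their symbols that the list does not hold (H2BC26, H4C16, H2AC25 and H2AX). The list is therefore not complete for histone genes with this stem-loop. An annotated transcript that stops near the coding end, such as that of H4C12 with 3 nt of 3′ untranslated sequence, cannot hold the stem-loop. The share of 40.5% thus describes the annotation and this exact match, and not the RNA in the cells. Since the libraries were poly(A)-selected, values of histone genes count the RNA that this selection captured.

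The overexpressed gene was examined first. GEMIN5 stood at 12.4, 14.8, 12.6 and 15.9 CPM (counts scaled to library size, with TMM factors, as for all levels here) in Input control and at 1319, 1543 and 1422 in Input GEMIN5. In polysomes it stood at 4.19, 5.57, 6.25 and 7.18 CPM in control and at 1035, 982, 1034 and 647 in GEMIN5 libraries. All 7 GEMIN5 libraries lay far above all 8 control libraries. The counts include RNA of the plasmid, and GEMIN5 RNA rose by 6.68 (SE 0.21) on the log2 scale in Input and by 7.31 (SE 0.21) in polysomes. Its interaction of 0.63 (SE 0.25) missed the threshold with edgeR's quasi-likelihood test (adjusted p = 0.053), while 9 of the alternative settings and left-out libraries took it past the threshold, with adjusted p between 1.29e-05 and 0.0356. Among the left-out libraries these were Input GEMIN5 replicate 2 (0.92), Polysome control replicate 4 (0.75) and Polysome GEMIN5 replicate 4 (0.77).

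Across the transcriptome, polysome association changed for a large share of genes. With edgeR, 4559 genes passed an adjusted p of 0.05 (37.4%), 2060 with a higher interaction (16.9%) and 2499 with a lower one (20.5%), and 2866 differed by at least 1 on the log2 scale. Of the 4559 genes, 2885 were also called in each of the 15 fits that left out 1 library. The split depended on Input GEMIN5 replicate 2, without which 2676 genes were higher and 1420 lower, and on the scaling: with library size alone, which moved the median gene by 1.27, 8423 were higher and 385 lower. Directions below are relative to the median gene.

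The change lay in the Input libraries. Of the 4559 called genes, 4443 also differed between GEMIN5 and control in Input, where 51.5% of all tested genes did (27.1% higher and 24.4% lower), and 11 differed in polysomes, where 0.484% did (0.082% higher and 0.402% lower). Genes with a higher interaction had a median change of -1.09 in Input and 0.01 in polysomes, and genes with a lower interaction had 1.25 and 0.02. The interaction is the difference of these effects and shares its libraries with them, so their opposite signs are no separate result. Within control cells 2941 genes were above and 2332 below their Input level in polysomes (24.1% and 19.1%, 43.2% in all). Within GEMIN5 cells 3981 were above and 4267 below (32.6% and 35%, 67.6% in all). The SD of the polysome-over-Input difference across genes was 0.75 in control and 1.36 in GEMIN5 cells on the log2 scale.

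**Figure D1:**
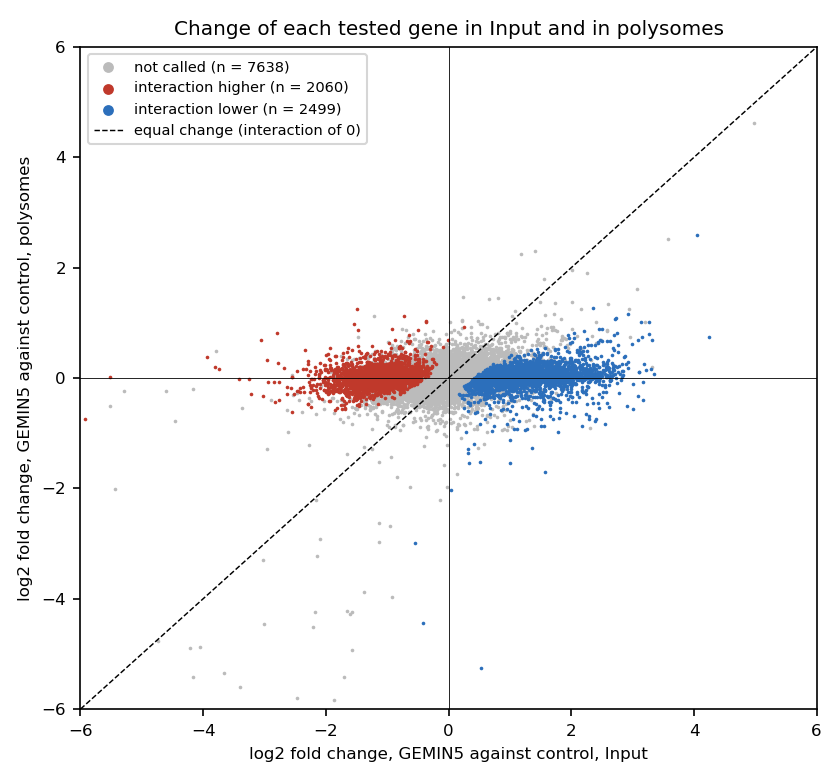
Log2 fold change of GEMIN5 against control in Input (x axis) and in polysomes (y axis), with 1 point per tested gene, 54 genes beyond the axes not drawn. Called genes spread along the x axis and stay near 0 on the y axis. The dashed line marks an interaction of 0.

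Library measures moved with these calls. Ribosomal protein genes took 34.2 to 35.3% of counts in Input control, 55.2 to 60.01% in Input GEMIN5, 19.4 to 25.04% in Polysome control and 19.96 to 24.95% in Polysome GEMIN5. The TMM scaling factor was 0.97 to 1.03 in Input control, 0.35 to 0.49 in Input GEMIN5 and 1.27 to 1.55 over both polysome groups. In 238 genes outside the ribosomal protein lists, spliced reads within 500 nt of the 3′ end exceeded those from 1500 nt upward by 0.77 to 0.83 on the log2 scale in Input control, by 2.64 to 2.77 in Input GEMIN5, by 0.73 to 1.54 in Polysome control and by 0.66 to 1.25 in Polysome GEMIN5. The Input GEMIN5 libraries therefore stood apart from the other 12 in composition and in the 3′ weighting of their reads, and the part of these differences in the interaction was not tested. No fit without the group can be made, since the 3 Input GEMIN5 libraries form it.

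Markers of other cell types were also unequal. The 21 liver markers together had 21 to 32 counts in Input control replicates 1 and 2, 1699 to 1997 in replicates 3 and 4, 1729 to 2386 in Polysome control, 38 to 63 in Input GEMIN5 and 17 to 28 in Polysome GEMIN5. Albumin (ALB) was at 0 counts in every Input GEMIN5 library and at 448 to 584 in Polysome control, and APOB and SERPINA1 were at 0 in every GEMIN5 library. Of the liver markers 2 passed the interaction test (APOA1 and VTN, both lower). Of 7 tested blood and immune markers 2 did (HBA1 and HBA2, both lower), and of all tested genes 37.4%. Unlike ALB, APOA1 was present in Input GEMIN5, at 27 to 44 counts, against 11 to 41 in Input control. It had 30 to 42 counts in Polysome control and 6 to 23 in Polysome GEMIN5. Fibroblast markers had 14 to 94 counts per library. The part of such RNA in other results was not tested. The liver markers reached at most 2386 counts in a library, and counts of 21 markers do not give the total of such RNA. All 21 liver markers were detected in Input control replicates 3 and 4 and in every Polysome control library, and 5 to 8 in each other library. The source of this RNA in libraries of a cell line was not tested.

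Polysome association of ribosomal protein mRNAs fell relative to the median gene. All 30 tested small subunit genes and 44 of 46 large subunit genes had a lower interaction (100% and 95.7%, against 20.5% of all genes), and none a higher one. Their medians were -2.11 and -2.05, against -0.01 over all tested genes. The lists' median change in Input was 2.22 and 2.05, and in polysomes 0.02 and 0.01. With library size as the only scaling their medians stayed below 0, at -0.79 and -0.72, where the median gene was at 1.27. Only RPL3 (-0.32, SE 0.20) and RPL4 (0.29, SE 0.22), components of the large subunit with long coding regions for this group, did not pass. Reads of processed pseudogene copies may be shared with these genes, and the handling of such reads is not given in the sources used here.

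RPS29, a small subunit protein gene (chr14:49570984-49599164, minus strand), had the lowest value of the group. Its levels were 1497, 1545, 1580.4 and 1415 CPM in Input control and 12684, 16945 and 16643 in Input GEMIN5. In polysomes they were 731, 878, 468 and 531 CPM in control and 763, 682, 472 and 815 in GEMIN5 libraries. All Input GEMIN5 libraries lay far above Input control, while the polysome groups overlapped throughout. The interaction was -3.29 (SE 0.29, adjusted p = 1.23e-06), and spliced reads alone gave -3.24.

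RPL39, a small protein at the exit tunnel of the large subunit, followed the same course. It stood at 6381, 5823, 6105 and 5263 CPM in Input control against 32624, 47568 and 45098 in Input GEMIN5, and at 2338 to 4452 against 2467 to 3903 in the polysome groups. Its interaction was -2.81 (SE 0.29, adjusted p = 2.45e-06). RPS21, another small subunit protein, reached -3.00 (SE 0.29). Both have the pyrimidine run printed above, whereas the window at the RefSeq start of RPS29 holds none.

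Other TOP mRNAs were called in both directions. Of 17 tested, 5 were lower and 5 higher (29.4% each, against 20.5% and 16.9% of all genes), and 7 did not pass, with a median of 0.24. Those that fell encode the elongation factor subunits EEF1B2 (-1.58) and EEF1D (-0.83), the growth-related protein TPT1 (-1.38), the ribosome scaffold RACK1 (-1.02) and the initiation factor subunit EIF3F (-0.66). Those that rose encode the translocase EEF2 (1.38), the initiation factor subunit EIF2S3 (1.75), the histone chaperone NAP1L1 (0.87), the splicing regulator HNRNPA1 (1.12) and the poly(A)-binding protein PABPC1 (0.61).

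TPT1 and EEF2 show the contrast in single libraries. TPT1 stood at 4404, 3913, 3907 and 3550.3 CPM in Input control and at 8767, 12134 and 11267 in Input GEMIN5, so every GEMIN5 library was higher. Its polysome levels were 1184, 1311, 890.0 and 961 CPM in control and 1122, 1137, 981 and 1299 in GEMIN5 libraries, which overlapped. EEF2 stood at 1459.5, 1304, 1473 and 1615 CPM in Input control and at 577, 505 and 563 in Input GEMIN5, so every GEMIN5 library was lower. Its polysome levels were 506, 488, 595 and 615 CPM in control and 499, 545, 611 and 501 in GEMIN5 libraries, again overlapping. The interactions were -1.38 for TPT1 (SE 0.23, adjusted p = 0.000111) and 1.38 for EEF2 (SE 0.18, adjusted p = 1.35e-05). Both genes carry a pyrimidine run at the annotated start. EEF1A1, which delivers aminoacyl-tRNA to the ribosome, had an interaction of 0.53 (SE 0.22, adjusted p = 0.0662), which passed the threshold without Input GEMIN5 replicate 2 (0.73, adjusted p = 0.0426), Input GEMIN5 replicate 3 (0.69, adjusted p = 0.031) or Polysome control replicate 2 (0.60, adjusted p = 0.0385).

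**Figure D2:**
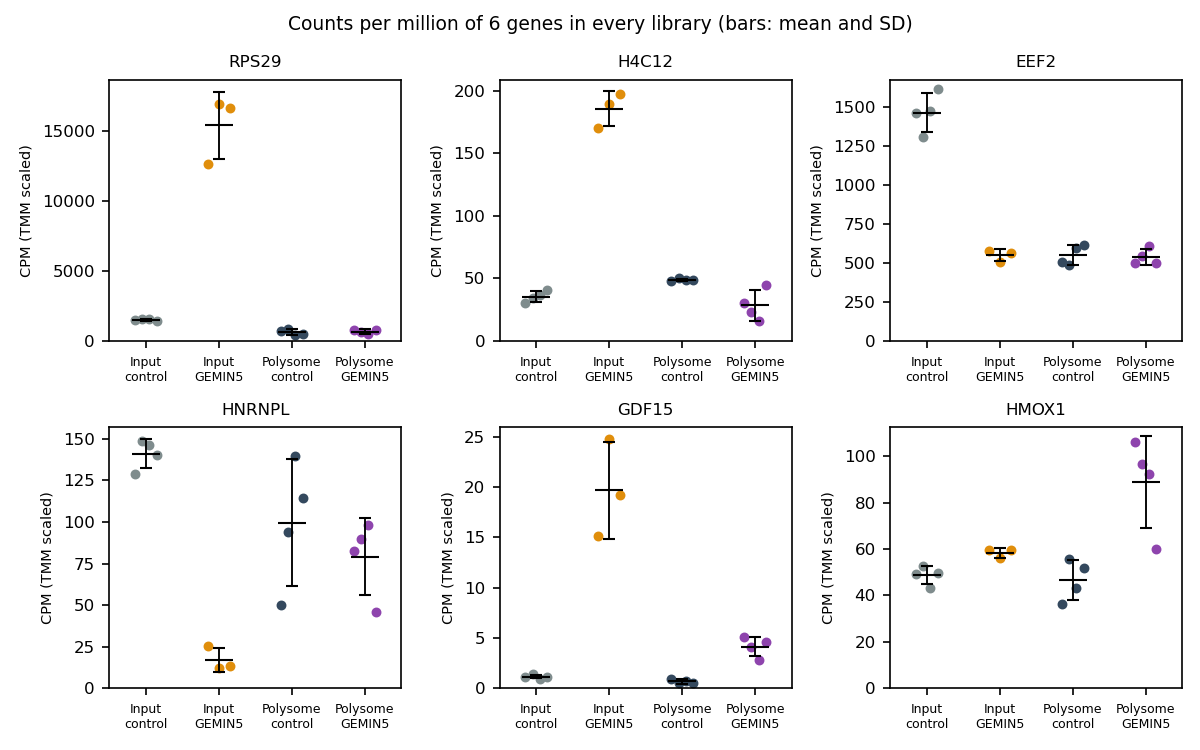
CPM of 6 genes in every library (points), with the group mean and SD (bars); each y axis starts at 0. By group mean RPS29 and H4C12 were highest in Input GEMIN5, EEF2 and HNRNPL in Input control, and HMOX1 in Polysome GEMIN5.

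Of 34 translation initiation factors 8 were higher and 6 lower (median -0.17), shares of 23.5% and 17.6% that lie near the 16.9% and 20.5% of all genes. EIF4E, which binds the mRNA cap, rose to an interaction of 1.77 (SE 0.22, adjusted p = 7.08e-06), and its inhibitor EIF4EBP1 fell to -1.59 (SE 0.29). EIF4E stood at 63.1, 64.5, 61.6 and 55.5 CPM in Input control and at 22.0, 11.3 and 19.5 in Input GEMIN5. Its polysome levels were 76.1 to 92.5 CPM in control and 77.1 to 92.1 in GEMIN5 libraries. EIF4G2 (1.59) and EIF4H (1.504) were higher, while EIF3C (-1.21), EIF3K (-1.14) and EIF1 (-0.93) were lower. Of 20 aminoacyl-tRNA synthetases, which load amino acids onto tRNAs, 4 were higher and 2 lower (median 0.15).

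Polysome association of replication-dependent histone mRNAs fell relative to the median gene. Of 42 tested, 37 had a lower interaction (88.1%, against 20.5% of all genes) and none a higher one (against 16.9%), with a median of -2.16. In control cells the list's median polysome-over-Input difference was 0.87, and in GEMIN5 cells it was -1.36. Its median change with GEMIN5 was 1.92 in Input and -0.27 in polysomes. With library size as the only scaling the median stayed below 0, at -0.83. The 5 genes that did not pass were H2AC21, H3C6, H2AC16, H2AC6 and H2BC12, at -1.42 to -0.39. Histone genes are near-identical copies, so counts may be split among them.

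H4C12, a histone H4 gene (chr6:27831174-27831560, minus strand), stood at 30.2, 34.7, 36.6 and 40.5 CPM in Input control and at 170.4, 189, 197 in Input GEMIN5. In polysomes it stood at 48.3, 50.1, 48.8 and 49.0 CPM in control and at 30.4, 23.3, 15.8 and 44.8 in GEMIN5 libraries. Input levels were higher in every GEMIN5 library, and polysome levels were lower in every GEMIN5 library. The interaction was -3.17 (SE 0.30, adjusted p = 1.94e-06), made of 2.38 (SE 0.22) in Input and -0.78 (SE 0.20) in polysomes, where the change did not pass (adjusted p = 0.122). H4C11 (-3.04, SE 0.40) and H2AC13 (-3.15, SE 0.36), whose stem-loops are printed above, were lower too.

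Genes called in the interaction and in both polysome contrasts numbered 1727. Of these, 71 were above Input in control polysomes and below it in GEMIN5 polysomes, among them H4C1 (1.34 to -1.58), H4C3 (0.96 to -1.77), H2BC18 (1.46 to -0.86), the ubiquitin-like modifier UFM1 (0.35 to -1.22) and the mitochondrial import receptor TOMM20 (0.33 to -0.81). The opposite course was taken by 54 genes, among them the chaperonin subunits TCP1 (-0.55 to 0.57) and CCT6A (-0.56 to 0.53), the endoplasmic reticulum proteins CALR (-0.92 to 0.39) and PDIA4 (-0.66 to 0.78), the metabolic enzymes GPI (-0.92 to 0.43) and ACLY (-0.52 to 0.58), and the mitotic checkpoint kinase BUB1B (-1.12 to 0.83). These examples were chosen after their values were seen.

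CALR, a calcium-binding chaperone, stood at 489.9, 518, 493 and 451 CPM in Input control and at 185, 172 and 144 in Input GEMIN5. Its polysome levels were 195, 282, 288 and 266 CPM in control and 237, 229, 247 and 164 in GEMIN5 libraries, which overlapped. The interaction was 1.31 (SE 0.22, adjusted p = 0.000113). Among 18 endoplasmic reticulum chaperones 9 were higher and 3 lower (median 0.50), against 16.9% and 20.5% of all genes. CANX had 1.53 (SE 0.39) and SDF2L1 -1.31 (SE 0.29). SDF2L1 missed the threshold without Input GEMIN5 replicate 2 (-0.88, adjusted p = 0.0575).

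Splicing proteins differed by class in their calls. Of 24 hnRNP proteins, which coat nascent RNA and steer splicing, 15 had a higher interaction (62.5%, against 16.9% of all genes) and none a lower one, with a median of 1.01. Of 12 SR and TRA2 proteins, which promote exon inclusion, 7 were higher (58.3%) and none lower, with a median of 0.81. With library size alone the medians were 2.26 and 2.08, where the median gene was at 1.27. HNRNPL, a regulator of exon choice, led the first group: it stood at 129, 148, 146 and 140.5 CPM in Input control and at 25.6, 12.3 and 13.3 in Input GEMIN5. Its polysome levels were 50.0, 93.7, 139.8 and 115 CPM in control and 82.5, 89.5, 98.2 and 45.7 in GEMIN5 libraries, which overlapped, and the interaction was 2.69 (SE 0.41, adjusted p = 5.75e-05). The SR protein SRSF6 had 1.83 (SE 0.54), and RAVER1, a partner of the splicing repressor PTBP1, had 3.29 (SE 0.48).

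QKI, which binds intronic elements, was at 5.45 to 7.18 CPM in Input control, 1.31 to 1.89 in Input GEMIN5, 20.5 to 33.4 in Polysome control and 16.4 to 51.6 in Polysome GEMIN5. Its interaction was 2.40 (SE 0.47, adjusted p = 0.000572). Sm and LSm proteins, the small ring proteins of spliceosomal and decay particles, went the other way. Of 10 Sm proteins and loading factors 6 were lower and 1 higher (median -1.07), against 20.5% and 16.9% of all genes. The Sm protein SNRPD3 (0.21, SE 0.72) did not pass, but its gene counts averaged only 0.51 CPM. Its spliced reads, 10225 per library on average, gave -1.13, and the cause of the low gene counts was not tested. Of 11 LSm proteins 9 were lower and 1 higher (median -1.38). With library size alone the Sm median turned to 0.24, below the median gene, and the LSm median was -0.09.

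SNRPG, the smallest Sm protein, stood at 545, 548, 531 and 466 CPM in Input control and at 2464, 3467 and 2978 in Input GEMIN5. In polysomes it stood at 374 to 583 CPM in control and at 376 to 640.2 in GEMIN5 libraries. Its interaction was -2.47 (SE 0.26, adjusted p = 2.27e-06). The chaperone CLNS1A, which delivers Sm proteins to their loading complex, was the higher member (0.65, SE 0.17), and LSM14A, a component of cytoplasmic granules, was the higher LSm protein (1.75, SE 0.33).

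Members of the SMN complex were called in both directions. Of 8 tested members besides GEMIN5, 2 were higher and 3 lower (25% and 37.5%, against 16.9% and 20.5% of all genes), with a median of -0.20, and of 0.0875 without Input GEMIN5 replicate 2. With library size alone it was 1.10, below the median gene at 1.27. GEMIN6 stood at 105, 116, 103 and 96.8 CPM in Input control and at 260.3, 316 and 291 in Input GEMIN5, and at 76.2 to 116 CPM over both polysome groups. Its interaction was -1.54 (SE 0.21, adjusted p = 1.76e-05). GEMIN4 followed with -0.85 (SE 0.20), and GEMIN2, which holds the Sm ring, with -0.61 (SE 0.15), which missed the threshold without Input GEMIN5 replicate 2 (-0.32, adjusted p = 0.205). SMN1 (1.21, SE 0.21) and SMN2 (0.57, SE 0.17) were higher, but these near-identical copies share reads and are uncertain. DDX20, STRAP and GEMIN8 had 0.11, 0.30 and -0.52 and did not pass. In the core spliceosome 6 of 30 members were higher and 8 lower (median -0.12), against the same 16.9% and 20.5% of all genes. Called members ran from TXNL4A at -2.04 (SE 0.29) to SNRNP70 at 1.28 (SE 0.32).

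**Figure D3:**
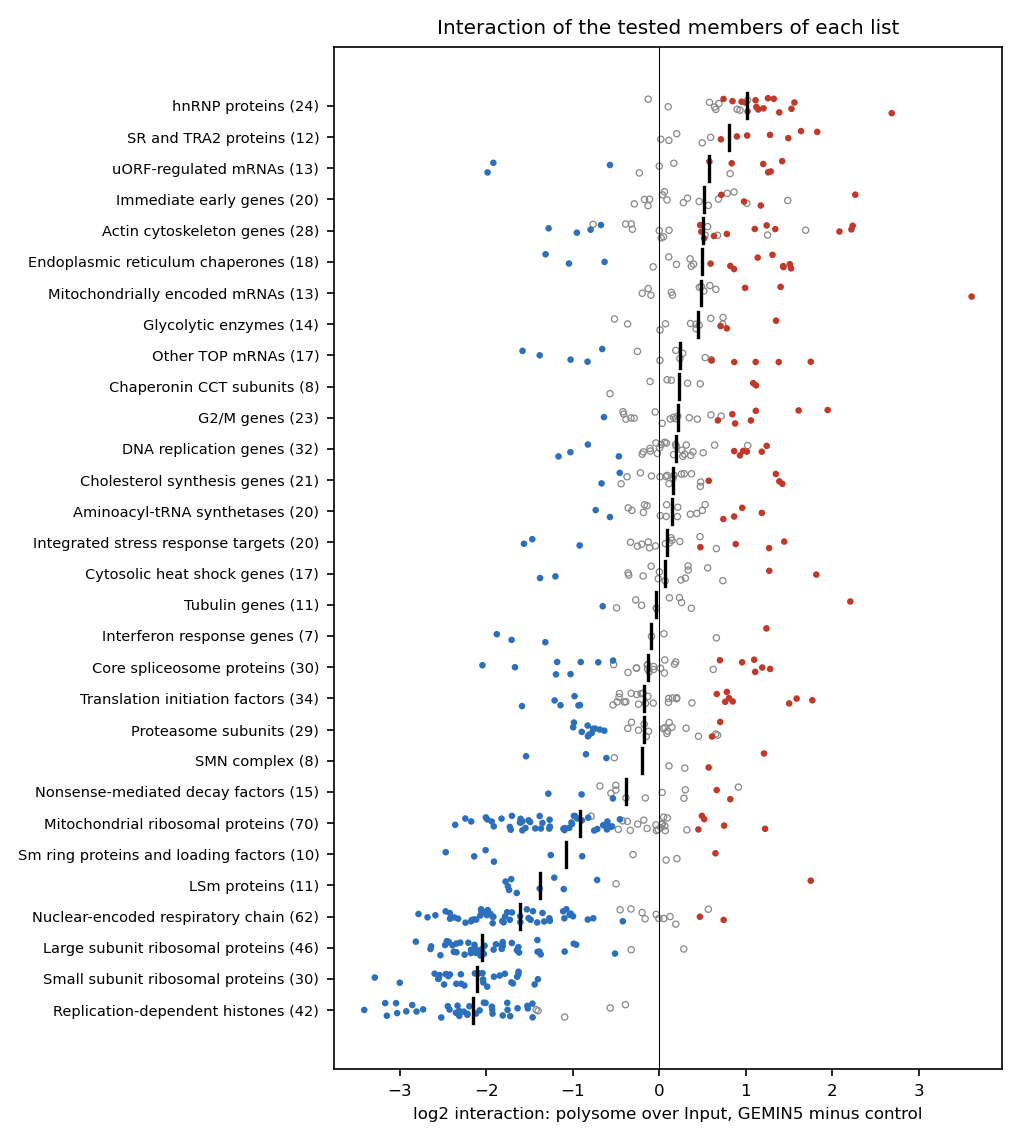
Log2 interaction of every tested member of 30 gene lists (points; filled where called), with the median of each list as a black bar and the number tested in parentheses. Histone and ribosomal protein lists lie lowest, with medians from -2.16 to -2.05, and hnRNP and SR protein lists highest, at 1.01 and 0.81.

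Mitochondrial proteins made in the cytosol resembled the ribosomal proteins. Of 62 nuclear-encoded respiratory chain genes 50 were lower and 2 higher (median -1.60), against 20.5% and 16.9% of all genes. Of 70 mitochondrial ribosomal protein genes 46 were lower and 5 higher (median -0.92). With library size alone these medians were -0.30 and 0.38, both below the median gene. ATP5F1E, a subunit of ATP synthase, stood at 976, 991, 975 and 859 CPM in Input control and at 5476, 7679 and 7272 in Input GEMIN5, while its polysome groups covered 641 to 1116 and 636 to 1184. Its interaction was -2.78 (SE 0.28, adjusted p = 2.16e-06). MRPL33 reached -2.36 (SE 0.22), whereas NDUFS1 (0.75, SE 0.18) and MRPS27 (1.23, SE 0.37) were higher.

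mRNAs encoded in mitochondrial DNA are translated by mitochondrial ribosomes. In control cells their median polysome-over-Input difference was -3.19, and in GEMIN5 cells it was -2.46. Of 13 such mRNAs 3 had a higher interaction (23.1%, near the 16.9% of all genes) and none a lower one (median 0.49). MT-ATP8 stood at 404, 379, 374 and 317 CPM in Input control, at 72.5, 34.9 and 51.7 in Input GEMIN5, and at 18.4 to 77.4 over both polysome groups. Its interaction of 3.61 (SE 0.39) was the highest among the named genes, but it overlaps MT-ATP6 (0.99, SE 0.33), and reads of the overlap are uncertain.

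mRNAs with upstream open reading frames, short frames that limit initiation at the main one, were 6 higher and 3 lower of 13 (median 0.58). Over all genes 16.9% were higher and 20.5% lower. AMD1 (1.26) and AZIN1 (1.29), which act in polyamine synthesis and its control, and PPP1R15B (1.42, SE 0.39), which recruits a phosphatase to eIF2, were higher. DDIT3, a transcription factor of the stress response, was lower (-1.92, SE 0.37): it stood at 13.3, 5.68, 12.2 and 12.5 CPM in Input control, at 42.8, 75.8 and 76.5 in Input GEMIN5, at 5.15 to 10.6 in Polysome control and at 11.1 to 15.0 in Polysome GEMIN5. Polysome levels of DDIT3 were higher in every GEMIN5 library, although that change did not pass (0.66, adjusted p = 0.658). The master regulator ATF4 was not called.

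TXNRD1, a thioredoxin reductase, is the member of that list whose call depends on which reads are used. Its gene counts gave an interaction of -1.98 (SE 0.17), from 353 to 404 CPM in Input control to 1602 to 1809 in Input GEMIN5. Its spliced reads gave 2.72, falling from 172 to 248 reads per Input control library to 7 to 25 per Input GEMIN5 library. The same check was made for every called gene with at least 20 spliced reads on average. Of 1690 higher genes 1675 kept the sign (99.1%), and of 1783 lower genes 1679 did (94.2%), while 16 genes in all, TXNRD1, FBXL5, NLN and CHD2 among them, turned by at least 1. PDE3A (-3.50, SE 0.33), the lowest named gene, had between 0 and 3 spliced reads in any library, TTC16 (-3.42, SE 0.58) had hardly any, and DAPK1 (-3.01, SE 0.36) gave 0.96 by spliced reads. What the counts of these 3 genes measure was not tested.

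Few genes differed in polysomes themselves. The 11 genes called both there and in the interaction were LRMDA, CRIP2, FES, NUPR1, MT1F, VTN, GDF15, ABCB11, HMOX1, ZBTB20 and CCNL1. GDF15, a secreted stress cytokine, stood at 1.16, 1.38, 0.966 and 1.16 CPM in Input control and at 15.1, 24.7 and 19.2 in Input GEMIN5. In polysomes it stood at 0.952, 0.525, 0.764 and 0.487 CPM in control and at 5.09, 4.09, 2.82 and 4.61 in GEMIN5 libraries. It was thus higher in every GEMIN5 library of both fractions, by 4.05 (SE 0.25) in Input and by 2.59 (SE 0.26) in polysomes. The rise in polysomes was smaller, with an interaction of -1.47 (SE 0.38, adjusted p = 0.00485), which missed the threshold without Input GEMIN5 replicate 2 (-1.03, adjusted p = 0.0562). NUPR1, a stress-induced chromatin protein, was alike (2.45 in Input, 0.88 in polysomes, interaction -1.56, SE 0.26), and so was the metallothionein MT1F (3.26, 1.01 and -2.25).

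HMOX1 and CCNL1 were the only genes of the 11 with a higher interaction. HMOX1, the heme-degrading oxygenase, stood at 49.4, 52.6, 43.3 and 49.7 CPM in Input control and at 59.4, 56.0 and 59.4 in Input GEMIN5. In polysomes it stood at 36.2, 55.6, 43.1 and 52.0 CPM in control and at 106, 96.7, 92.4 and 60.2 in GEMIN5 libraries. Both fractions were higher in every GEMIN5 library, and polysomes rose by 0.93 (SE 0.16, adjusted p = 0.0094) against 0.26 (SE 0.17) in Input. The interaction was 0.67 (SE 0.23, adjusted p = 0.0293). It missed the threshold without Input control replicate 2 (0.63), Input GEMIN5 replicate 3 (0.68), Polysome control replicate 3 (0.63), Polysome GEMIN5 replicate 1 (0.57) or Polysome GEMIN5 replicate 2 (0.62), at adjusted p between 0.0507 and 0.0691. CCNL1, a cyclin tied to splicing, stood at 10.5 to 12.3 CPM in Input control, 10.1 to 12.7 in Input GEMIN5, 6.03 to 7.91 in Polysome control and 10.2 to 12.2 in Polysome GEMIN5. Its interaction was 0.70 (SE 0.20, adjusted p = 0.00934), with no change in Input (-0.01, SE 0.15). VTN and ABCB11 are liver genes, with mean levels of 0.726 and 0.803 CPM in Polysome control and of 0.0253 and 0.0117 in Polysome GEMIN5. In Input GEMIN5 they stood at 0.323 and 0.988 CPM, and the part of liver RNA in their calls was not tested.

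The other lists are read against the 16.9% of all genes called higher and the 20.5% called lower. Of 20 targets of the integrated stress response 4 were higher, led by the serine synthesis enzyme PSAT1 (1.45, SE 0.31), and 3 lower (median 0.10). Of 28 actin cytoskeleton genes 11 were higher and 4 lower (median 0.50), with ACTB at 2.24 (SE 0.34). Of 29 proteasome subunits 11 were lower and 2 higher (median -0.17, and 1.10 with library size alone, below the median gene). Of 14 glycolytic enzymes 3 were higher (median 0.45), of 23 G2/M genes 7 were higher and 1 lower (median 0.22), of 32 DNA replication genes 6 were higher and 4 lower (median 0.19), and of 20 immediate early genes 4 were higher (median 0.52), led by KLF10 (2.27, SE 0.55). Heat shock genes (2 higher and 2 lower of 17), chaperonin subunits (2 higher of 8), cholesterol synthesis genes (4 higher and 2 lower of 21), tubulins (1 higher and 1 lower of 11), interferon response genes (1 higher and 3 lower of 7) and nonsense-mediated decay factors (2 higher and 3 lower of 15) had medians of 0.07, 0.24, 0.16, -0.03, -0.09 and -0.38.

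The interaction was described by transcript length, since the 3′ weighting of reads differed. Among protein-coding genes outside the ribosomal protein and histone lists, the median was -1.94 for 79 transcripts of up to 600 nt, -1.20 for 273 of 801 to 1000 nt, -0.11 for 1334 of 1501 to 2000 nt, 0.25 for 1947 of 3001 to 4000 nt and -0.04 for 1997 longer than 6000 nt. The same medians in polysomes lay between -0.03 and 0.04. Short transcripts outside the lists were thus lower as well. The median transcript length was 894 and 1093 nt in the small and large subunit ribosomal lists and 488 nt in the histone list. Among genes with an annotated transcript of at least 2000 nt alone, 1544 were higher and 1573 lower, and the ribosomal lists kept medians of -2.57 and -2.20. Lengths here are annotated ones, such as 2314 nt for RPS14 and 3437 nt for RPS23. The lengths of the RNA in the cells were not measured, so this subset cannot show a comparison at matched length.

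Spliced reads gave the same quantity at single junctions, scaled here to library size only. In genes outside the ribosomal protein lists the median interaction was 0.08 for 680 junctions lying 151 to 300 nt from the 3′ end, 0.71 at 501 to 750 nt, 1.27 at 1501 to 2000 nt and 1.00 for 836 junctions beyond 6000 nt. In Input these medians were -0.11, -0.75, -1.27 and -1.03, and in polysomes the medians of all bins lay between -0.045 and 0.0029. In ribosomal protein genes the median was negative in every bin up to 6000 nt, from -0.92 within 150 nt to -0.28 at 751 to 1000 nt, and positive (0.39) in the last bin, which holds 8 junctions of 2 genes. Ribosomal protein genes thus lay below other genes at the same annotated distance in each bin. Distances run along annotated transcripts, which put 28 junctions of 12 ribosomal protein genes at 2001 to 3000 nt. The 3′ ends used in the cells were not measured, so the bins cannot show a comparison at matched true distance.

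**Figure D4:**
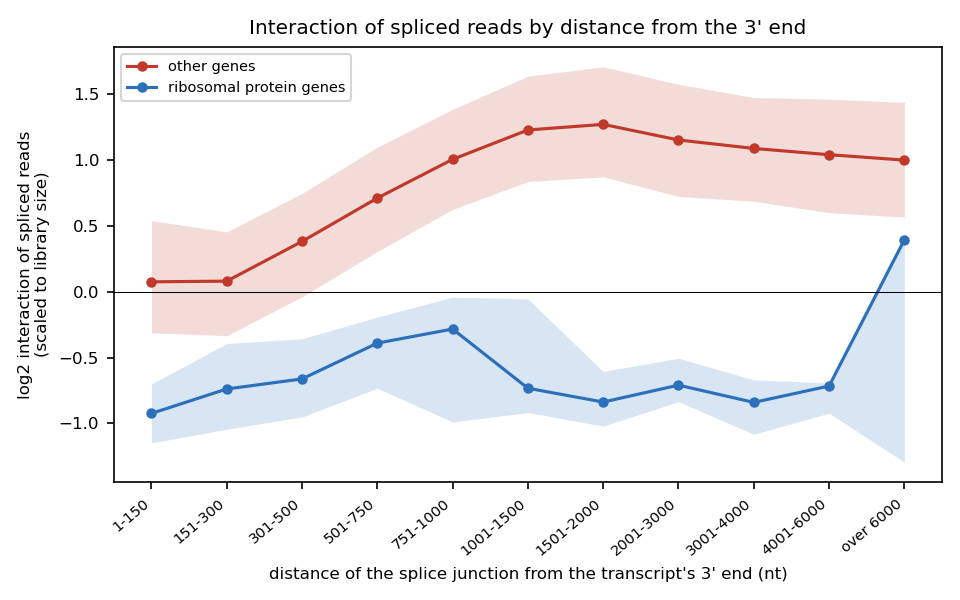
Median log2 interaction of spliced reads (lines) with the middle 50% of junctions (bands), for ribosomal protein genes and other genes. Junctions are placed by their distance from the annotated 3′ end in nt. Other genes rise from 0.08 to 1.27 with distance, and ribosomal protein genes stay below them; the last bin of the ribosomal genes holds 8 junctions.

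Splicing events were tested in the same way. Of 10800 events, 349 passed with limma at an adjusted p of 0.05 (3.23%), 213 with a higher PSI interaction (1.97%) and 136 with a lower one (1.26%), in 291 genes. Here a higher interaction means that inclusion in polysomes relative to Input was greater in GEMIN5 than in control cells. As for genes, 331 of the 349 also differed in Input, where 12.9% of events did (4.29% higher and 8.63% lower), and 2 of all events differed in polysomes (0.0185%, both lower). Between polysomes and Input, 36 events differed in control cells (0.333%, 0.185% higher and 0.148% lower) and 1503 in GEMIN5 cells (13.9%, 8.74% higher and 5.18% lower). The called events had a median PSI change of 6.79 points in size in Input and of 0.715 in polysomes.

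Exons and introns moved in opposite directions. Of 6511 exons 170 were higher and 33 lower (3.12% called), and of 1534 retained introns 12 were higher and 84 lower (6.26%). Among 1463 alternative 3′ splice sites 21 were higher and 13 lower (2.32%), and among 1292 alternative 5′ sites 10 were higher and 6 lower (1.24%). At 15 PSI points or more, 53 events were higher and 53 lower, among them 47 and 15 exons and 4 and 36 retained introns. Near the ends of the PSI scale, log2 odds with 0.5 added also depend on the number of reads. An exon of CLPTM1 was called with mean PSIs of 100 in Input control, Input GEMIN5 and Polysome GEMIN5 and 98.65 in Polysome control. With 1 added to each read number, 430 events were higher and 240 lower. The part of read numbers in these calls was not tested. Leaving out 1 library gave between 127 calls, without Polysome GEMIN5 replicate 3, and 365, without Input GEMIN5 replicate 1. The direction of the 18 named events did not change in any of these fits, and 10 of them were called in all 15. A fit with the replicate number as a block called fewer events, 13 higher and 11 lower, and 4 of the 18 named ones.

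NELFA, a subunit of the complex that pauses RNA polymerase II, had the lowest exon (202 nt, chr4:2006998-2007199). Its PSI was 16.8, 16.9, 12.7 and 15.0 in Input control and 100, 94.1 and 65.4 in Input GEMIN5. In polysomes it was 33.9, 21.7, 13.4 and 18.9 in control and 30.01, 21.9, 13.5 and 33.98 in GEMIN5 libraries. All Input GEMIN5 libraries were above all others, and the polysome groups overlapped. The interaction was -68.3 points (adjusted p = 0.0181), with as few as 14 reads in a library.

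The lowest introns were in ZNF330 (-68.7 points), CTTN (-62.8), DNAJA3 (-60.6), RNF41 (-56.8) and LIAS (-54.3). The intron of ZNF330, a zinc finger gene, had a PSI of 11.2, 9.73, 12.6 and 6.91 in Input control and of 80.7, 87.9 and 72.2 in Input GEMIN5. In polysomes it had 43.8, 18.8, 4.59 and 12.6 in control and 18.3, 26.1, 15.3 and 25.9 in GEMIN5 libraries. CTTN encodes the actin-binding protein cortactin, and its intron stood at 17.7 to 31.3 in Input control, 90.9 to 100 in Input GEMIN5, 4.00 to 25.5 in Polysome control and 5.38 to 44.2 in Polysome GEMIN5. DNAJA3, a mitochondrial co-chaperone, and the ubiquitin ligase RNF41 were called in all 15 fits without 1 library, ZNF330 in 13, LIAS in 12 and CTTN in 8.

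Exons of 3 genes with higher interactions are printed to show what was included or skipped. They are annotated coding exons of GENCODE transcripts (GRCh38), whole, 5′ to 3′, with no part in capitals.
ASPSCR1 exon 6, chr17:81995992-81996065, plus strand: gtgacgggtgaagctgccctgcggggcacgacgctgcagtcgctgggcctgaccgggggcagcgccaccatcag
FANCI exon 24, chr15:89299800-89299966, plus strand: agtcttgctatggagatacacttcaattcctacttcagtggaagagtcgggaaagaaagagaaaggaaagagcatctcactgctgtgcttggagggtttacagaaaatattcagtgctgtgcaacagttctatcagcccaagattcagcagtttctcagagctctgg
HNRNPH3 exon 3, chr10:68337858-68337996, plus strand: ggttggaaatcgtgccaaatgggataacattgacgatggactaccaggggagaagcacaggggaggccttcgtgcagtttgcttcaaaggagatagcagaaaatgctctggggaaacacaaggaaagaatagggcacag
Their lengths are 74, 167 and 139 nt. For ASPSCR1 and FANCI the skipping junction also leaves out neighbouring exons. Their GC content was 73.0, 44.3 and 49.6%.

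ASPSCR1, which tethers a glucose transporter, included this exon at a PSI of 100 in all 4 Input control libraries and at 16.2, 65.3 and 44.4 in Input GEMIN5. In polysomes it was at 100, 100, 94.1 and 100 in control and at 100, 100, 87.2 and 100 in GEMIN5 libraries. The interaction was 56.3 points (adjusted p = 0.0132), and the next exon of the same gene, which is not independent of it, had 52.8. As few as 12 reads stood behind a value.

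FANCI, a DNA crosslink repair protein, had 12 called exons, all higher, which lie in 1 gene and are not independent. The exon printed above had a PSI of 59.5, 56.3, 44.7 and 59.5 in Input control and of 10.7, 7.69 and 12.97 in Input GEMIN5. In polysomes it had 18.02, 31.8, 58.1 and 43.6 in control and 54.3, 41.4, 52.5 and 24.1 in GEMIN5 libraries, and its interaction was 49.8 points (adjusted p = 0.0321). It was called in 6 of the 15 fits without 1 library. RBM42, a splicing-associated RNA-binding protein, had 6 called events, all higher, from 12.3 to 38.4 points.

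CIRBP, the cold-inducible RNA-binding protein, had an exon (97 nt, chr19:1272427-1272523) at a PSI of 73.0, 76.1, 69.3 and 72.9 in Input control and of 18.2, 16.2 and 24.6 in Input GEMIN5. In polysomes it was at 83.8, 83.0, 89.3 and 87.3 in control and at 87.2, 76.3, 89.5 and 79.2 in GEMIN5 libraries. The interaction was 50.4 points (adjusted p = 0.0109), with at least 86 reads in every library, more than behind the NELFA and ASPSCR1 values. An exon of TPGS2, a tubulin polyglutamylation subunit, was alike (242 nt, 50.1 points, at least 123 reads). Both were called in all 15 fits without 1 library.

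**Figure D5:**
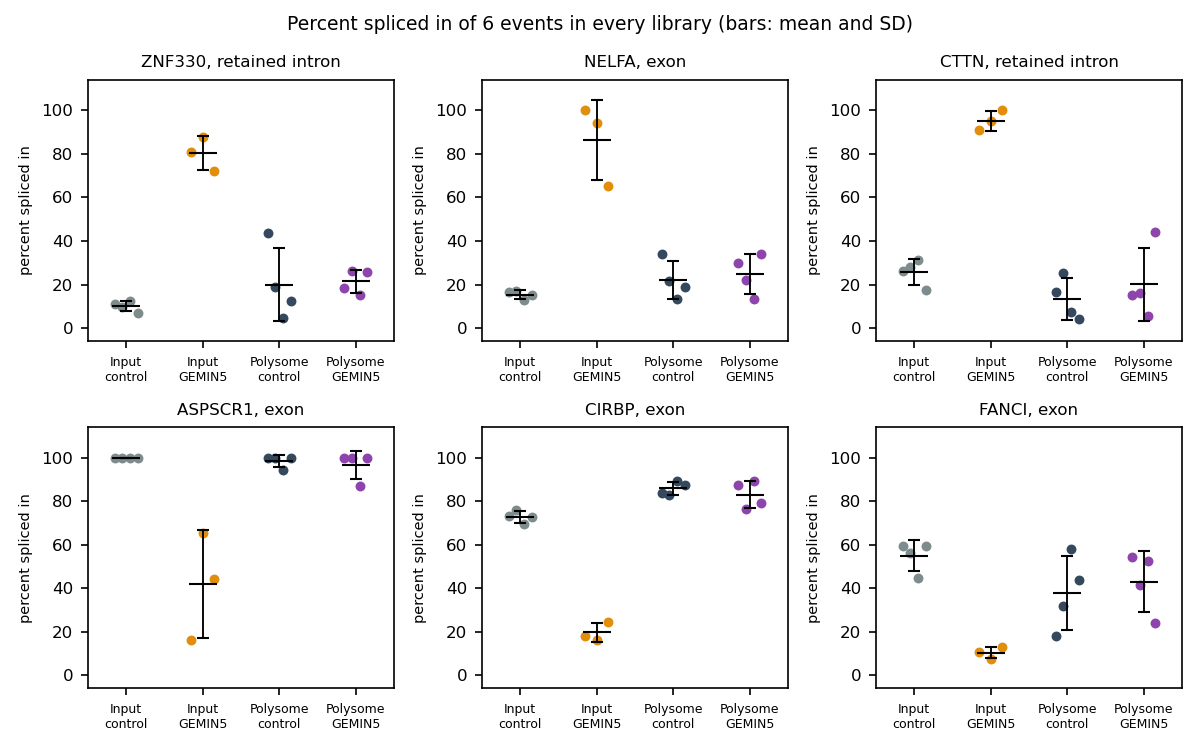
PSI (percent) of 6 named events in every library (points), with the group mean and SD (bars). The Input GEMIN5 libraries lie apart from the other 3 groups in each panel, above them for ZNF330, NELFA and CTTN and below them for ASPSCR1, CIRBP and FANCI.

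Splicing factor genes held smaller changes. The printed exon of HNRNPH3 was included at 97.6 to 98.3 in Input control, 76.7 to 83.6 in Input GEMIN5 and 91.8 to 98.5 over both polysome groups, with an interaction of 17.4 points (adjusted p = 0.0237). It missed the threshold in 3 of the 15 fits without 1 library. Introns of HNRNPH1 (-7.33 points), HNRNPA3 (-6.15) and SRSF10 (-19.6) and an exon of SRSF2 (-4.08) outside annotated coding sequence were lower. Few reads stood behind some Input GEMIN5 values. The HNRNPH1 intron had 29, 22 and 15 reads there, against 131 to 233 in Input control. The HNRNPA3 intron had 41 to 49 against 540 to 790, and the HNRNPH3 exon 35 to 56 against 467 to 668. SRSF10 was called in 2 of those fits, HNRNPH1 in 9 and the other 2 in all 15. In the Sm list an exon of SNRPD3 was higher by 2.50 points, at 95.8 to 96.4 in Input control and 92.4 to 94.0 in Input GEMIN5, with at least 4954 reads in every library. In the SMN complex no event was called.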

How the data were processed

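RNA-seq of 15 libraries was used. The authors deposited raw counts, whole numbers per Ensembl gene ID; STAR 2.7.10a, featureCounts and GRCh38/hg38 are named in the submitters' processing notes. The sources used here do not give the counting options, strand use or splicing tool version, and the deposited gene lengths span whole genes, so reads in introns may be included. PSI is a deposited percent per event, and the deposited quality column (unit other) holds the corrected reads of each event; PSI lay within 0.5 points of their inclusion share in 100% of 2330118 values. The first row of each alternative splice site set was left out.

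Genes passing filterByExpr were tested with edgeR 4.0.16 (quasi-likelihood, TMM, Benjamini-Hochberg, R 4.3.3) in 1 fit. Events with 10 reads or more in every library whose PSI reached 5 in some library and 95 or less in some library were tested with limma 3.58.1 on log2 odds with 0.5 added. SEs are of log2 changes. Depth was 11191417 to 18407933 counts. Spliced reads were the exclusion reads of introns of 1 principal transcript per gene (genes: scaled to library size with TMM factors, 0.5 added; junctions: library size alone, 1 added). Symbols came from the reference tables; 19872 of 21519 IDs had one.

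Named genes were GEMIN5, the 10 lowest and 10 highest interactions among genes called in the fit and in all 15 fits without 1 library (mean of at least 5 CPM), and each list's called member with the largest change in each direction. Named events were the 6 lowest, the 6 highest and up to 3 per splicing list. A part is printed; other names were chosen after their values were seen. Members and lists were chosen with earlier results of these data known. Alternatives were other scalings, filters, DESeq2 1.42.0, a replicate block and leaving out each library. On simulated data of 12197 genes, 7.46%, 41.8% and 89.4% of interactions of 1.5, 2 and 4-fold were recovered (4 of 96 calls unchanged), and of 10800 events 4.48%, 29.9% and 72.7% at 20, 40 and 60 points (6 of 77 unchanged).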

Additional observations from a re-analysis of the deposited data

Results flagged for a closer look

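The effect of GEMIN5 differed between Input and polysomes by the test of that difference for 4559 genes and for 349 events. Single libraries also stood apart from the other 3 of their group, by a rule on the gap to the nearest library that chance meets in about 1 in 20 groups; 300 groups were examined and 19 met it. Among CPM values these were GEMIN5 in Polysome GEMIN5 replicate 4 (647), ATP5F1E (859) in Input control replicate 4, TWF1 (18.4) and EEF1A1 (10812) in Input control replicate 1, SRSF6 (5.16) and DDIT3 (5.68) in Input control replicate 2, and SRSF6 (1.63) in Polysome GEMIN5 replicate 4. TCP1 (413) and PSMD11 (81.1) were low in Polysome control replicate 1. PMVK was high in Input control replicate 2 (82.1) and in Polysome control replicate 2 (81.2). Among PSI values they were the introns of RNF41 (42.9, Polysome control replicate 2) and LIAS (20, Polysome control replicate 4), the exons of ASPSCR1 in Polysome control replicate 3 (94.1 and 96.4) and of its exon 6 in Polysome GEMIN5 replicate 3 (87.2), an exon of SNRPD3 (95.8, Input control replicate 1) and one of SRSF2 (1.26, Input control replicate 4). The TMM factor of Input control replicate 4 was 1.03.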

How the results depend on the processing

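Calls of genes stayed within 1.5 times the reported counts of 2060 higher and 2499 lower with RLE scaling (2437 and 2242), TMM without ribosomal protein and mitochondrial genes (2329 and 2309), no filter (2266 and 2250), at least 5 CPM (1673 and 2174) and DESeq2 (2525 and 2305). With library size alone they were 8808 in all, 8423 higher and 385 lower. Transcripts of at least 2000 nt alone, an alternative chosen after seeing the data, gave 1573 lower. Leaving out 1 library gave 3927 to 5172 genes, 1740 to 2676 higher and 1420 to 2641 lower. The 349 events became 206 (125 higher, 81 lower) at 20 reads, 670 (430 and 240) with 1 added to each read number, and 127 to 365 (82 to 234 and 45 to 131) without 1 library. With library size alone the interaction turned positive for VARS1 (0.56), PSMB6 (0.31), PMVK (0.62), MYL6 (0.0395), TUBA1B (0.65), GINS2 (0.15), CENPF (0.64), RBM8A (0.0331), GEMIN2 (0.69) and GEMIN4 (0.43). So did the medians of initiation factors (1.13), the SMN complex (1.10), Sm proteins (0.24), mitochondrial ribosomal proteins (0.38), proteasome subunits (1.10) and nonsense-mediated decay factors (0.90). This scaling moves the median gene from -0.01 to 1.27, and each of these values is below it. Leaving out 1 library gave medians of -0.28 to 0.0705 for initiation factors, -0.346 to 0.0875 for the SMN complex and -0.30 to 0.0726 for the proteasome, the highest without Input GEMIN5 replicate 2. The cause was not tested.

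The labels do not say what the replicate numbers mark. Deviations of the 7 same-numbered Input and polysome pairs correlated at -0.24 to 0.36, 3 of them over 0.1. The 3 Input libraries that correlated best with their own number were all control libraries. These values do not settle whether the numbers pair the samples. A replicate block gave 2545 higher and 2545 lower genes and 24 events (13 higher, 11 lower). It calls 4 of the 18 named events. Polysome GEMIN5 replicate 4 has no partner.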
